A study of Mus musculus with 4 samples.

Results

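Hair cells (HCs) turn sound and head motion into nerve signals, and the level of a gene in HCs relative to the epithelial cells around them can differ between the cochlea, the organ of hearing, and the vestibular system, the organ of balance. This dependence on the organ was measured for each gene as the vestibular log2 ratio of HCs to surrounding epithelial cells minus the cochlear log2 ratio. Of 12814 genes in the table, 6968 (54.4%) had a signal of at least 200 in the highest of the 4 libraries and were kept, of which 6727 were protein-coding. The minimum of 200 was taken from the highest library whatever its identity, so a gene could pass it through a single library.

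The 4 populations came from newborn (postnatal day 1) *Atoh1/nGFP* mice on a C57BL/6 background, in which a nuclear green fluorescent protein is carried by HCs. Cochlear HCs and vestibular HCs were sorted as cells with both the fluorescent protein and the epithelial surface protein CD326, and cochlear ENSCs and vestibular ENSCs (epithelial non-sensory cells, a name that also covers supporting cells) as cells with CD326 alone. No treatment was given, all 4 groups carried the transgene, and several mice were pooled for a sort. Each population had 1 library, so no difference below has a replicate error, no test was possible, and a difference between organs cannot be told apart from a difference between libraries.

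HCs detect motion with an actin-based bundle of stereocilia and release glutamate at ribbon synapses. Vestibular HCs retain a true cilium, the kinocilium, beside the bundle, whereas in the cochlea it is lost as HCs mature. ENSCs include supporting cells, cells that secrete the tectorial membrane or the otoconia, and cells that transport ions into the endolymph, and this mixture differs between the organs. In sorted bulk RNA, fewer cells of a type and less RNA per cell cannot be told apart.

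The labelled cell types were checked against marker genes. All 10 HC markers, among them *Atoh1*, *Pou4f3*, *Myo7a* and *Otof*, exceeded the ENSC signal by 3-fold or more in the cochlea and also in the vestibular system. *Epcam*, which encodes CD326, was present in all libraries at 1017 in cochlear HCs, 3376 in cochlear ENSCs, 1139 in vestibular HCs and 7511 in vestibular ENSCs. Among 5 epithelial markers including *Epcam*, 4 were at least 3-fold lower in cochlear HCs than in cochlear ENSCs. All 5 were at least 3-fold lower in vestibular HCs than in vestibular ENSCs. *Krt8* had 24.25 in cochlear HCs, too low to be ranked, and 60.75 in vestibular HCs. *Cdh1* had 6003 in cochlear HCs but 178.5 in vestibular HCs. Of 8 supporting cell markers, 4 of the cochlea and 3 of the vestibular system were at least 3-fold lower in HCs and none was 3-fold higher. Of other cell types, 16 of 23 mesenchymal markers were in the table and summed to between 626 in vestibular HCs and 21053 in cochlear ENSCs (9 of the 16 were highest in cochlear ENSCs and 6 in vestibular ENSCs). The 11 of 16 glial markers in the table summed to between 2027 and 6131. Only 2 of 19 macrophage and blood cell markers were in the table, with a sum of at most 64.5 in any library.

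The HC to ENSC ratios of the organs were related but not equal. Across the 6968 genes, Pearson's r of the log2 ratios was 0.675 and Spearman's rho 0.654, as a description, since the 2 ratios share no library but were quantile-normalized together. The difference between organs had a median of 0.10 and an SD across genes of 1.49 on the log2 scale, and 4076 genes (58.5%) were within 2-fold. The vestibular ratio was at least 3-fold higher than the cochlear ratio for 851 genes (12.2%) and at least 3-fold lower for 751 (10.8%), together 23%. At 9-fold, the counts were 190 genes (2.73%) and 130 genes (1.87%), together 320 (4.59%), and these are called large below. Low signals do not rank. Those up to 24.25 in cochlear HCs, 22.75 in cochlear ENSCs, 30.5 in vestibular HCs and 20 in vestibular ENSCs were treated as tied, since the order of genes above the floor within these ranges followed their highest signal in the other libraries, which dropped at the end of the range. A fold that rests on such a signal is given as a bound where it has one. Of the 320 large differences 169 were measured, 59 were lower bounds, 12 upper bounds and 80 had no bound. Over all 6968 genes, 6251 were measured and 334 had no bound, so large differences rested on unranked signals more often.

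The share with a large difference was 3.76% among genes with a highest signal of 200 to 400 and 9.40% among the 117 genes at 10000 or more. These groups were formed on the highest library, so they do not describe the low signals that enter a ratio. Genes with the same direction in both organs could still differ by organ. Of 527 genes at least 3-fold higher in HCs of both organs, 133 had ratios 3-fold or more apart, and of 511 genes at least 3-fold lower in HCs of both organs, 122 did. Genes past 3-fold in the vestibular system and within 3-fold in the cochlea were more numerous (664 higher and 721 lower in HCs) than those past 3-fold in the cochlea and within it in the vestibular system (190 higher and 291 lower). The log2 ratios themselves were spread more widely in the vestibular system (SD 2.0 across genes) than in the cochlea (SD 1.6). Just inside the minimum stood *Tfam* and *Mapkapk5*, both with a highest signal of 200 and a difference of 0.80. Just outside it stood *Hrasls* and *Arid5a*, both at 199.75, with differences of 4.24 and 0.08. Both of the latter use a cochlear HC signal too low to be ranked.

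**Figure D1:**
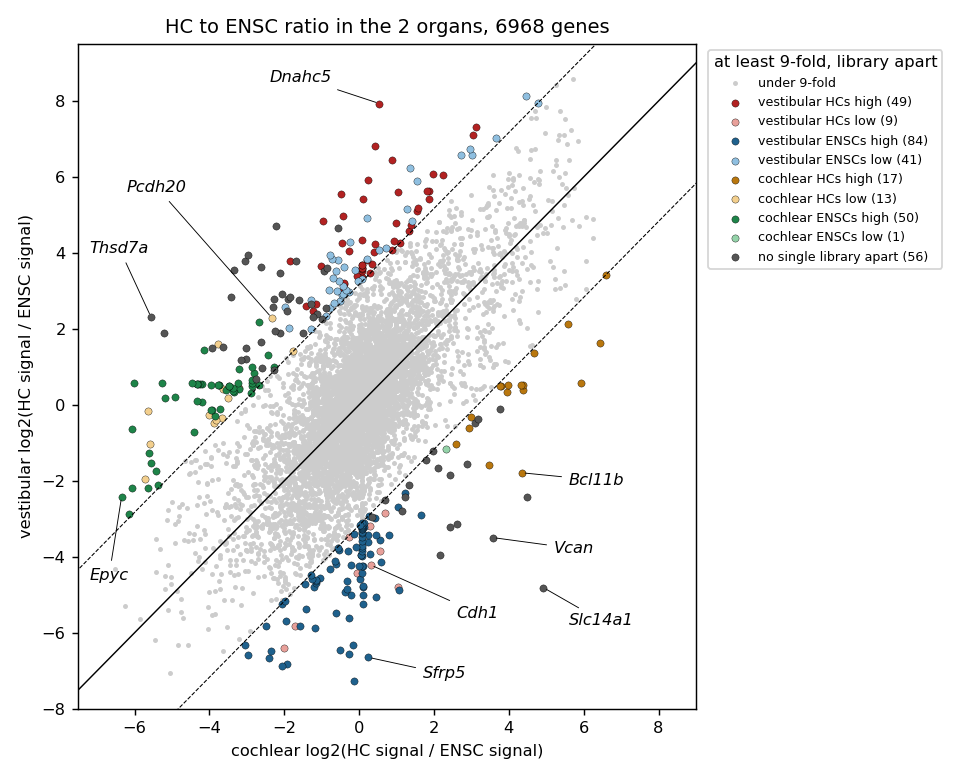
Cochlear log2 ratio of HC to ENSC signal (x axis) against the vestibular log2 ratio (y axis) for 6968 genes. The solid line marks equal ratios and the dashed lines a 9-fold difference, beyond which 190 genes lie above and 130 below, coloured by the library that stood apart.

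A difference of this kind is built from 4 signals, so each large difference was traced to the library behind it. A library was said to stand apart when its log2 signal lay outside the range of the other 3 by at least 0.5 of the difference. For 264 of the 320 genes a single library stood apart, and for 56 the difference was spread over libraries. Of the 190 genes with the higher vestibular ratio, cochlear ENSCs were high for 50, vestibular HCs high for 49, vestibular ENSCs low for 41 and cochlear HCs low for 13. Of the 130 genes with the lower vestibular ratio, vestibular ENSCs were high for 84 (64.6%), cochlear HCs high for 17, vestibular HCs low for 9 and cochlear ENSCs low for 1. The difference can also be written as an HC part, vestibular against cochlear HCs, minus an ENSC part, vestibular against cochlear ENSCs. The ENSC part was the larger for 110 of the 190 and for 98 of the 130, in all for 208 of the 320. It was the larger for 4464 of all 6968 genes, a similar share, so this split is not particular to the large differences.

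GC content moved with this split. Over 6965 genes with an annotated exonic sequence, Spearman's rho of GC content was -0.42 with the difference, 0.46 with the ENSC part and 0.0038 with the HC part. With genes divided into 10 equal groups by GC content, from the lowest to the highest, the median difference went from 0.69 to -1.25 and the median ENSC part from -0.78 to 1.13, while the median HC part stayed between -0.11 and 0.07. Of the 84 genes for which vestibular ENSCs were high, 39 fell in the group of highest GC content. After a correction for the trends on exonic length and GC content, 49 genes were past 9-fold with vestibular ENSCs high. The library apart was still read from the uncorrected signals, set against the corrected difference. Of the 84 themselves, 46 stayed past 9-fold. With that correction 218 of the 320 large differences stayed past 9-fold in the same direction, 139 of 190 and 79 of 130, and all 320 stayed past 3-fold. How much of the vestibular ENSC pattern the GC content accounts for was not tested.

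**Figure D2:**
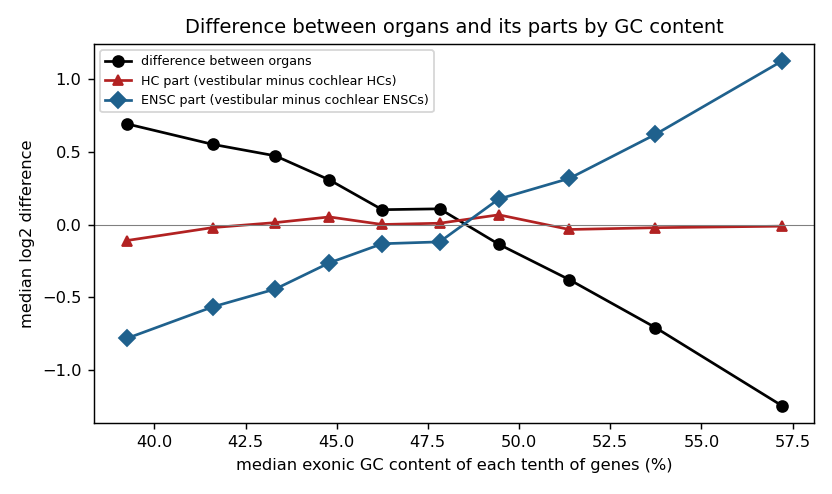
Median log2 difference between organs, and the medians of its HC and ENSC parts (y axis), for 10 equal groups of genes by exonic GC content in percent (x axis). The HC part is near 0 throughout, and the ENSC part climbs from -0.78 to 1.13 as the difference falls from 0.69 to -1.25.

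**Figure D3:**
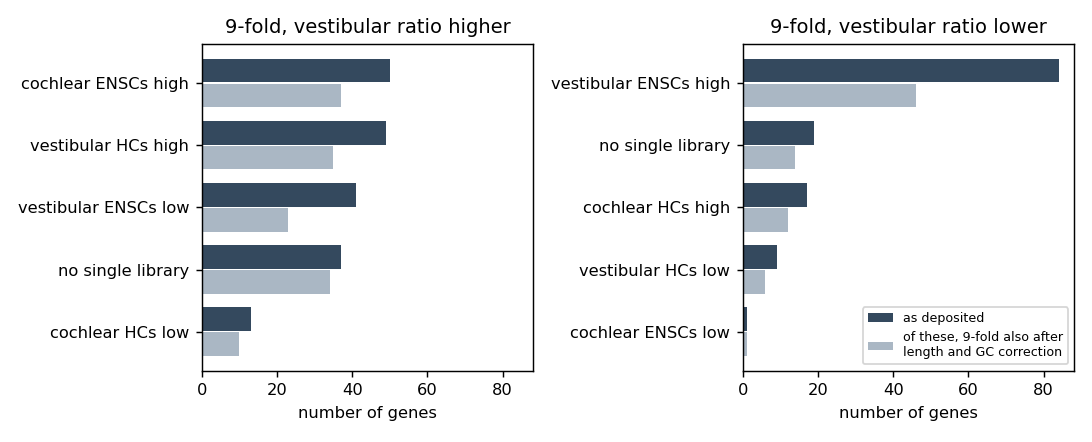
Number of genes with a difference of at least 9-fold (x axis) by the library that stood apart, for genes with the higher (left) and lower (right) vestibular ratio. Dark bars count genes as deposited and light bars those of them that stayed past 9-fold after length and GC correction, 46 of 84 for vestibular ENSCs high.

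Vestibular HCs were the high library for 49 genes, among them genes of the ciliary axoneme. *Dnahc5*, a heavy chain of the outer dynein arm on mm9 chr15:28133507-28401800, had a signal of 88 in cochlear HCs, 60.5 in cochlear ENSCs, 5255 in vestibular HCs and 21.5 in vestibular ENSCs. Its ratios differed 168-fold (log2 difference 7.39), and vestibular HCs alone were high. Where 4 signals are given in a row below, they stand in this order: cochlear HCs, cochlear ENSCs, vestibular HCs and vestibular ENSCs. *Dnahc9*, another outer arm heavy chain, had 53.8, 45.5, 1204 and 20, a difference of at least 51.0-fold. *Fmo2*, a flavin-containing monooxygenase, had 30.8, 22.8, 2337 and 20.8, and *Akap6*, an anchoring protein of protein kinase A, had 33, 46.5, 939 and 20. For both, the other 3 libraries had at most 46.5, near the floor of 20. *Slc17a8*, the vesicular glutamate transporter of HCs, was high in HCs of both organs, at 11819.8 in vestibular HCs, 1058 in cochlear HCs and 123 and 74.3 in the ENSCs, a difference of 18.4-fold. *Ocm*, which encodes the calcium buffer oncomodulin, had 534 in vestibular HCs against 57.8 in cochlear HCs, with both ENSC libraries among signals too low to be ranked.

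Vestibular HCs were also the low library for 9 genes. *Cdh1*, which encodes the epithelial adhesion molecule E-cadherin, had 6003 in cochlear HCs, 4853 in cochlear ENSCs, 179 in vestibular HCs and 3308 in vestibular ENSCs, a 22.9-fold difference. The 3 other libraries were within a factor of 2 of each other, and vestibular HCs stood far below them. *Pla2g7*, a secreted phospholipase that inactivates platelet-activating factor, followed with 1604, 785, 84.3 and 2329 (56.5-fold), and *Smoc2*, a matricellular protein, with 392, 1572, 30 and 2548. In cochlear HCs all 3 were well above the floor.

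Cochlear HCs were high for 17 genes, which included transcription factors. *Bcl11b* had 2260.3 in cochlear HCs, 112 in cochlear ENSCs, 30.5 in vestibular HCs and 105 in vestibular ENSCs, a difference of at least 70.0-fold. Its vestibular ratio was below 1 while its cochlear ratio was 20.3. *Insm1*, a zinc-finger factor of neuroendocrine and sensory differentiation, had 1379 in cochlear HCs and 22.8, 29.8 and 20 in the other libraries, signals that cannot be ranked. *Zfp503*, a zinc-finger repressor, had 5794, 524, 269.5 and 813 (33.3-fold), with 3 libraries at low to middle signals and cochlear HCs far above. *Slc26a5*, which encodes prestin, the protein that drives outer hair cell motility, had 455 in cochlear HCs against 22.5, 29 and 20. Cochlear HCs were low for 13 genes. *Kitl*, the ligand of the receptor Kit, had 27.8, 1371, 199.5 and 222 (44.4-fold). *Slc4a4*, a sodium bicarbonate cotransporter, had 24.3, 333, 1268 and 417, and *Pcdh20*, a protocadherin, 114, 572, 7597 and 1552. For these last 2 genes vestibular HCs were the highest library, so that the HC libraries were the extremes.

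Vestibular ENSCs were the high library for the largest group, and its leading genes were near the floor elsewhere. *Sfrp5*, a secreted Wnt inhibitor, had 27 in cochlear HCs, 22.8 in cochlear ENSCs, 30.5 in vestibular HCs and 3055 in vestibular ENSCs, a difference of at least 119-fold (-5.89 on the log2 scale after length and GC correction, -6.89 before). *Slco2a1*, a prostaglandin transporter, had 2817 in vestibular ENSCs and at most 30 in any other library. *Nox3*, the NADPH oxidase required for otoconia to form, had 2604 against at most 34.3. *Grem1*, an inhibitor of bone morphogenetic proteins, had 1046 against at most 31.5, and *Pkp1*, a desmosomal plaque protein, 868 against at most 47.5. *Tmem176b* differed in that cochlear cells had a middle signal, 137 in HCs and 153 in ENSCs, with 30 in vestibular HCs and 2404 in vestibular ENSCs. *Kdr*, a receptor of vascular endothelial growth factor, had 1462 in vestibular ENSCs and at most 29.8 elsewhere. *Flt1*, the only other of 14 endothelial markers in the table, was at the floor of 20 in vestibular ENSCs and highest in cochlear ENSCs at 130.

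Vestibular ENSCs were low for 41 genes, whose median highest signal of 1474 was the highest of the groups with the higher vestibular ratio. *Pgm2l1*, which makes glucose 1,6-bisphosphate, had 3415, 1343, 10366 and 137 in cochlear HCs, cochlear ENSCs, vestibular HCs and vestibular ENSCs (29.9-fold). *Slco5a1*, an organic anion transporter family member, had 925, 1577, 785 and 50.5 (26.5-fold). *Snap91*, an adaptor of synaptic clathrin coats, had 472, 406, 721 and 23.8 (26.1-fold). In each case the ENSC part (-3.30, -4.96 and -4.09) exceeded the HC part (1.60, -0.24 and 0.61) in size.

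Cochlear ENSCs were high for 50 genes with the higher vestibular ratio. *Pappa2*, a protease of insulin-like growth factor binding proteins, had 1072 in cochlear ENSCs and 27.8, 29.8 and 20 in cochlear HCs, vestibular HCs and vestibular ENSCs. *Spink5*, a serine protease inhibitor, had 1569 against 24.3, 30 and 20, and *Aspn*, a small leucine-rich matrix protein, 419.5 against 23.8, 54 and 20. The vestibular ratio of *Pappa2* and *Spink5* was formed from signals that do not rank, so their differences carry no bound. *Fst*, which encodes the activin inhibitor follistatin, showed the same arrangement, with 1191 in cochlear ENSCs and at most 53.8 elsewhere. *Epyc*, an abundant proteoglycan of cochlear supporting cells, had 62029 in cochlear ENSCs, 764 in cochlear HCs, 1119 in vestibular ENSCs and 210.0 in vestibular HCs, so that it was lower in HCs of both organs and its ratios still differed 15.2-fold. *Sema3e*, a secreted semaphorin, was the only gene for which cochlear ENSCs were low, at 104 against 515 in cochlear HCs, 1563 in vestibular HCs and 3506 in vestibular ENSCs. The mesenchymal marker sum was highest in the same library, cochlear ENSCs, and its part in these results was not tested.

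**Figure D4:**
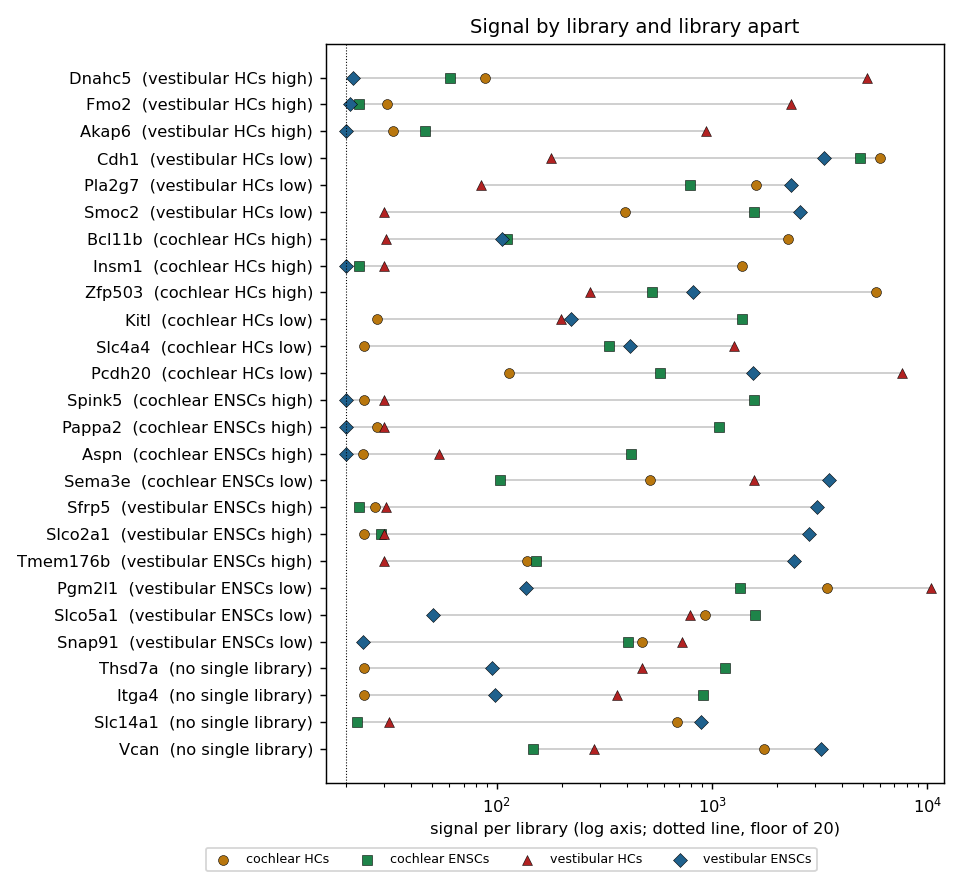
Signal per library on a log axis for 26 genes (y axis), grouped by the library that stood apart, which is named beside each gene. Circles are cochlear HCs, squares cochlear ENSCs, triangles vestibular HCs and diamonds vestibular ENSCs, 1 library each. *Dnahc5* has 1 point at 5255 and 3 below 100, whereas *Slc14a1* has 2 high and 2 low points.

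The largest difference in each direction belonged to a gene with no single library apart, in which the HC part and the ENSC part had opposite signs. *Thsd7a*, a membrane protein with thrombospondin repeats on mm9 chr6:12261610-12699410, had 24.3 in cochlear HCs, 1143 in cochlear ENSCs, 471 in vestibular HCs and 94.8 in vestibular ENSCs. The HC part was 4.28 and the ENSC part -3.59, and the difference at least 234-fold. *Itga4*, the integrin alpha 4 subunit, had 24.3, 907, 361 and 97.5, the same order of libraries. *Slc14a1*, a urea transporter, was the reverse, with 684 in cochlear HCs and 885 in vestibular ENSCs but 22.5 in cochlear ENSCs and 31.5 in vestibular HCs. Its log2 difference of -9.74 was the widest of the 6968 genes (at least 844-fold), with a similar size of HC part (-4.44) and ENSC part (5.30). *Vcan*, the matrix proteoglycan versican on mm9 chr13:89794915-89882117, had 1747, 147, 284 and 3198, all above the range in which signals do not rank (134-fold). *B3galt5*, a galactosyltransferase, had 601, 26.8, 29.8 and 160.0, so cochlear HCs and vestibular ENSCs were again the higher pair.

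With 3-fold as the limit in each organ, 26 genes had HCs above ENSCs in the vestibular system and below them in the cochlea, and 11 were the reverse. The first set held *Trdn*, a partner of calcium-release channels (22.5, 186, 285 and 20.8), and *Gucy1b3*, a subunit of soluble guanylate cyclase (42.3, 449.5, 142 and 20). It also held *Nptx2*, a secreted pentraxin of synapses (41.3, 255, 248 and 20). The second set held *Dpysl3*, a regulator of the cytoskeleton in growing axons (3582, 588, 248 and 2179), and *Jam2*, a junctional adhesion molecule (190.0, 35.3, 115 and 1072). In all 5, the cell type that was higher in 1 organ was the lower one in the other.

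Gene lists were read against the shares over all 6968 genes, 12.2% and 10.8% past 3-fold. Of 90 motile axoneme genes, 71 were in the table and 49 passed the minimum. Of the 49, 34 had the higher vestibular ratio by 3-fold or more, none the lower, and the median difference was 2.03. The median HC part was 1.49 and the median ENSC part -0.35. Of the 71 in the table, 33 in cochlear ENSCs and 36 in vestibular ENSCs had signals too low to be ranked. In cochlear HCs and vestibular HCs the numbers were 8 and 1. The floor limits the ENSC part of such genes, so the sizes of the parts cannot be fully compared. With length and GC correction, 30 of 49 passed 3-fold and the median was 2.06. Besides *Dnahc5* and *Dnahc9*, *Dnahc6*, an inner arm heavy chain, had 157, 40, 1359 and 20, and *Lrriq1* had 387, 132, 1369.8 and 23.3. *Dnahc6* was highest in vestibular HCs, and in *Lrriq1* vestibular ENSCs were the library apart.

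Genes of intraflagellar transport, the BBSome and the transition zone, which build and sort cargo into cilia, gave 14 higher and 1 lower of 43 past the minimum (of 61 listed), with a median difference of 1.10. With length and GC correction 12 were higher and 1 lower, and the median was 0.84. Here the median ENSC part (-0.77) exceeded the HC part (0.45) in size. *Ttc30b*, an intraflagellar transport subunit whose reads could be shared with its near-identical copies, had 503, 669, 1427 and 116. *Rpgrip1l*, a transition zone protein, had 1373, 588, 2005 and 129, with vestibular ENSCs low. Of 225 putative targets of RFX factors named by the study, chosen in part on these libraries and therefore not independent, 155 passed the minimum, 50 had the higher ratio and 1 the lower, and the median was 1.10.

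RFX factors bind the X-box, and promoters were searched from 250 bases upstream to 50 downstream of each gene's annotated start for the half-site GTTNCC followed after 0 to 3 bases by GGNAAC on either strand. An X-box was present in 0.536% of 37310 annotated genes and 0.761% of the genes kept here. The share was 1.29% (11 of 851) of those with the higher vestibular ratio by 3-fold and 0.667% (5 of 750) of those with the lower. It was present in 7 of 43 genes of the intraflagellar transport list (16.3%), 3 of them past 3-fold. Of 49 motile axoneme genes 1 had it, and 0 of the 34 past 3-fold. It was in 1 of 190 genes with a large higher ratio and 1 of 130 with a large lower ratio. The 3 called genes are shown because they are the members in which the motif and the difference coincide. Each line gives 30 bases of mm9 on the gene's strand, with the X-box in capitals. The window of *Bbs7*, a BBSome subunit, is chr3:36512411-36512440 on the minus strand, where the motif starts 33 bases upstream of the gene's start. That of *Ttc26* is chr6:38331483-38331512 on the plus strand, 22 bases downstream, and that of *Ift57* is chr16:49699339-49699368 on the plus strand, 1 base downstream.
Bbs7: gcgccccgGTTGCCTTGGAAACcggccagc
Ttc26: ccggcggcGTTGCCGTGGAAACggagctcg
Ift57: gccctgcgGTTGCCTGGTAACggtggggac
A match is a description of the sequence and no evidence of binding. The half-sites of *Bbs7* and *Ttc26* are 2 bases apart and those of *Ift57* 1 base. *Bbs7* had 81.8, 116, 203 and 42.5 in cochlear HCs, cochlear ENSCs, vestibular HCs and vestibular ENSCs, and a difference of 6.79-fold. *Ttc26* and *Ift57* are intraflagellar transport subunits with log2 differences of 2.54 and 1.85. Vestibular ENSCs were the library apart for *Ttc26* and vestibular HCs for *Ift57*.

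Of the lists that describe the HC bundle, the direction of the medians depended on the settings. Of 23 stereocilia actin core genes, 4 had the higher vestibular ratio and none the lower, with a median of 0.06, and of 15 mechanotransduction and bundle link genes 4 and 1, with a median of 0.24. The second median was -0.47 with a floor of 100, -0.13 without the minimum and 1.44 with a minimum of 1000. All 8 members with the higher ratio had vestibular ENSCs as the library apart, and low. *Pls1*, an actin bundler, had 5457, 4737, 11148 and 782, *Clic5*, a protein of the stereocilia base, 1203, 1847, 1545 and 135, and *Ptprq*, a shaft connector phosphatase, 16851, 692, 23927 and 127. Ribbon synapse genes gave 9 higher and 2 lower of 24, with a median of 0.42 that became 1.11 after length and GC correction and -0.23 with a minimum of 1000. HC ion channel genes gave 5 higher and 1 lower of 11, and their median of 1.52 became 0.22 with a floor of 100, 0.32 with a minimum of 100 and -0.45 without a minimum. *Kcnj2*, an inward rectifier potassium channel, had 295, 437, 1895 and 75.5 (37.2-fold), *Gad1*, which makes GABA, 145, 239, 419.5 and 29.3, and *Sv2b*, a synaptic vesicle protein, 136, 504, 212 and 31. Calcium-binding protein genes gave 3 higher and none lower of 13, with a median of -0.24 that became 0.38 with a minimum of 100.

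HC transcription factors had a higher or lower vestibular ratio about as often as all genes. Of 26 listed, 19 passed the minimum, 3 had the higher vestibular ratio (15.8%), 2 the lower (10.5%, *Insm1* and *Zfp503*, above), and the median was 0.32. With length and GC correction 5 were higher and 2 lower. *Atoh1*, the factor that starts HC differentiation, had 805 in HCs of the cochlea and 504 in those of the vestibular system against 25.5 and 20 in the ENSCs, a log2 difference of -0.33. *Gfi1*, a repressor needed for HC survival, had 626 and 1219.8 in HCs and 22.5 and 20 in ENSCs. The 3 higher ones were *Isl1*, *Sox2* and *Pou4f3*. For *Isl1*, a LIM homeodomain factor, the signals were 3682, 4976, 2957 and 339, and for *Sox2*, a factor of the prosensory domain, 2659.5, 2104, 3961 and 466. Both had similar signals in the HC libraries and a low signal in vestibular ENSCs. *Pou4f3* had 2199 and 2489.5 in HCs and 55.3 and 20 in ENSCs. *Gata3*, by contrast, differed strongly between the organs in both cell types, with an HC part of -7.01 and an ENSC part of -6.14, and these nearly cancelled to a difference of -0.87. *Nr2f1* and *Nr2f2*, nuclear receptors, cancelled likewise, with differences of 0.63 and 0.58. The other members had *Prox1* 1.19, *Tbx2* 1.14, *Rfx3* 1.12, *Ikzf2* 0.32, *Sox4* 0.25, *Nhlh1* 0.21, *Rfx7* -0.22, *Sox11* -0.26 and *Barhl1* -1.25 as log2 differences. Because of signals too low to be ranked, the values of *Nhlh1* and *Gata3* are lower bounds in size. For the same reason that of *Atoh1* is an upper bound in size and that of *Barhl1* has no bound. The 7 listed factors below the minimum were *Rfx1*, *Rfx2*, *Rfx5*, *Lhx3*, *Foxj1*, *Pou2af1* and *Hes6*.

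Lists of matrix and otoconial products had more genes with the lower than with the higher vestibular ratio as deposited, and for the otoconial list the order of these counts turned with the correction while its median stayed negative. Of 22 tectorial membrane and otoconial genes 6 were higher and 9 lower (median -0.66), which became 6 higher and 4 lower (median -0.58) after length and GC correction. Of 46 extracellular matrix and matrix receptor genes, 9 were higher and 18 lower (median -1.03), which became 9 higher and 13 lower. *Col2a1*, the collagen of the tectorial membrane and cartilage, had 978, 5439, 399.8 and 22405, with vestibular ENSCs high, whereas *Tectb*, a glycoprotein of the tectorial membrane, had 1196, 7995, 2436 and 1507, with HCs above ENSCs in the vestibular system and below them in the cochlea. Of 41 otic patterning genes 14 were higher and 8 lower (median 0.58). *Aldh1a1*, which makes retinoic acid, had 144, 551, 173 and 19507, and *Ntn1*, the guidance protein netrin, 30, 126, 30.5 and 3605. For both, vestibular ENSCs lay far above the other 3 libraries. Endolymph transport and dark cell genes gave 2 higher and 4 lower of 13 (median -0.73). *Atp1b2*, a subunit of the sodium pump, had 798, 545, 326 and 3806, and *Atp6v1b1*, a subunit of the proton pump, 23.5, 323, 28.8 and 20. Supporting cell genes were divided, with 6 higher and 5 lower of 29 and a median of 0.13.

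Lists of general cell functions were included for comparison. Cytosolic ribosomal protein genes gave 1 higher and 13 lower of 41, with a median of -1.26 that became -0.75 after length and GC correction. Their reads could be shared with processed copies. Immediate-early genes, which respond to stimulation or to cell handling, gave none higher and 5 lower of 24, and their median of -0.53 became 0.20 with the correction, which left 2 higher and 2 lower. *Fosl2*, one of them, had 248, 897, 167 and 5298. Nuclear-encoded oxidative phosphorylation genes gave 5 higher and 4 lower of 42, with a median of -0.13, and cell cycle and mitosis genes 1 and 2 of 13, with a median of -0.34. *Mki67*, a marker of dividing cells, had 414 in vestibular ENSCs and at most 29 elsewhere. Neuron markers gave 4 higher and none lower of 5 past the minimum (22 listed). Their sum over the 9 in the table was 6148 in cochlear HCs, 1327 in cochlear ENSCs, 7673 in vestibular HCs and 354 in vestibular ENSCs. By this sum both HC libraries were above both ENSC libraries. Gene by gene, 6 of the 9 were highest in vestibular HCs and 3 in cochlear ENSCs, among the latter *Dcx* with 78.5, 815.5, 153 and 118. Some of the 9 genes are also expressed by HCs, such as *Snap25*, a vesicle fusion protein, with 1291, 53.3, 2091 and 20. Glial markers gave 1 higher and 2 lower of 9, mesenchymal markers 1 and 2 of 9, and neither of the 2 melanocyte markers passed 3-fold.

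**Figure D5:**
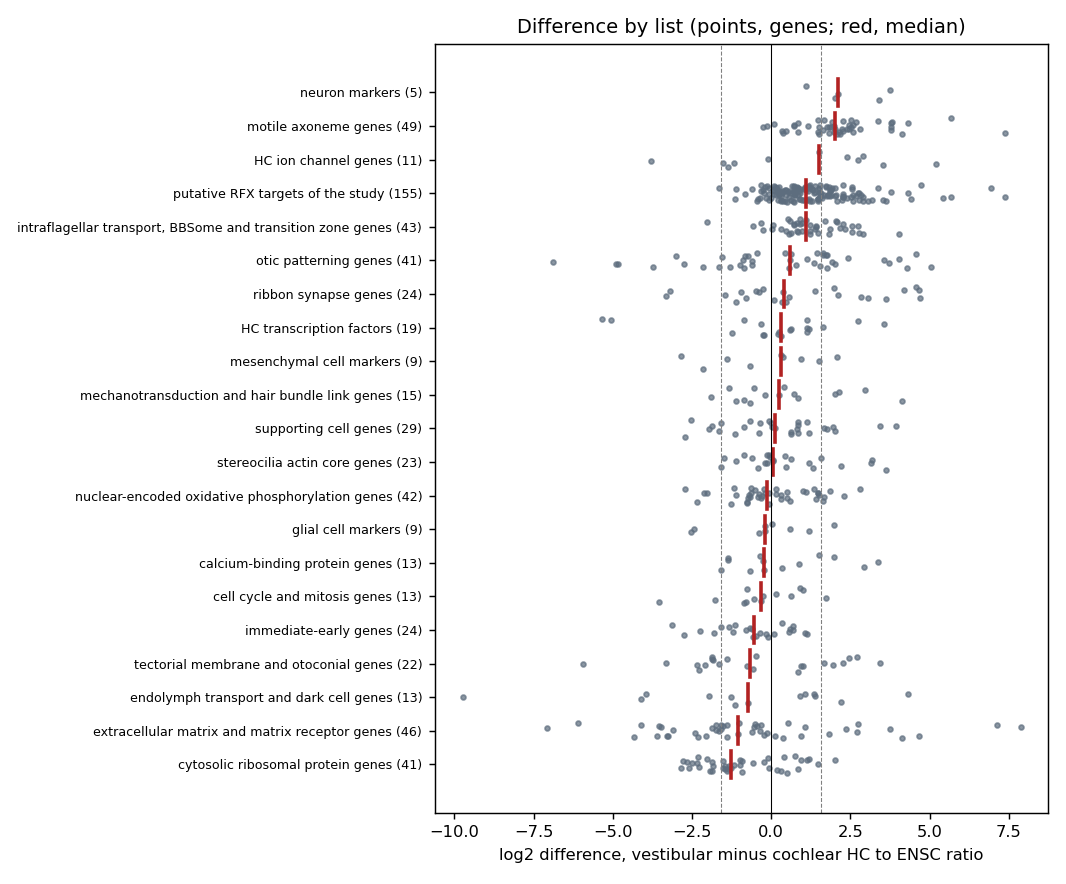
Log2 difference between organs (x axis) for the members of 21 gene lists past the minimum (y axis, number of members in brackets), with the median as a red bar and dashed lines at 3-fold. Motile axoneme genes lie almost wholly above 0 with a median of 2.03, while cytosolic ribosomal protein genes have a median of -1.26.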

How the data were processed

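RNA from 4 sorted populations was sequenced, with 1 library per population. The labels name RNeasy Plus Micro extraction and NuGEN Ovation amplification of polyadenylated RNA. The authors deposited a signal per ENSEMBL gene that is no longer a count. Reads, of which 50 nt were used, were aligned to mm9 with TopHat and counted with HTSeq. The counts were quantile-normalized over the 4 columns and given a floor of 20. The paper describes the floor as the later step, but the deposited name of the data lists it first. The tied ranges reach above 20, so low signals were treated as unranked whichever step came first. Versions and the strand setting are not given in the sources used here. Each column therefore summed to 7830343 and the sequencing depth is unknown, so no counting interval is given. Overall shifts between cell types are removed by this scaling. The design text speaks of triplicates, but each population had 1 column. The non-HC column of an organ was matched to its ENSC sample.

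For each gene with at least 200 in the highest library, the log2 ratio of HC to ENSC signal was computed per organ with no pseudocount, and the cochlear ratio subtracted from the vestibular one. Differences of at least 3-fold and of at least 9-fold were counted. The study used 3-fold for HCs against the other epithelial cells within an organ, not for a difference between organs. No test was made. The top of each library's tied range is the last value before the genes' highest signal in the other libraries drops. Gene positions, exonic length, GC content and promoters came from GENCODE for NCBIM37, which is mm9; 12799 of 12814 identifiers matched. Length and GC trends were removed with lowess (span 0.3, 2 robust iterations). The procedure was tested on simulated data in which a single library was raised. Calls of a low library and of a difference spread over libraries were not covered by it, and it held no GC trend. Python 3.11.15, pandas 2.3.3, numpy 2.4.6, scipy 1.17.1, statsmodels 0.14.6 and matplotlib 3.10.9 were used.

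Members, gene lists and alternatives were chosen with earlier results of these data known. Genes named are protein-coding: the 15 largest differences each way, for each library apart (high or low) the 3 largest, for each direction of opposite ratios the 6 with the largest smaller ratio, the 4 largest of each list, all HC transcription factors and the 2 genes just inside and outside the minimum. The cell type markers, *Flt1*, and the genes with an X-box were named beside these, and the last after their values were seen, as was every gene with opposite ratios in the closing section. Of these, 1 gene is not reported here.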

Additional observations from a re-analysis of the deposited data

Results flagged for a closer look

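Genes were singled out where the HC to ENSC ratio was past 3-fold in opposite directions in the organs. These differences were not tested, as each population had 1 library. Values are vestibular minus cochlear log2 ratios of the deposited signals. For *Thsd7a*, *Itga4*, *Ly75*, *Trdn*, *Nptx2*, *Gucy1b3*, *Slc4a4*, *Rgs20*, *Slc14a1*, *B3galt5*, *Bcl11b* and *Matn4*, 1 of the 4 signals was too low to be ranked. Their values are lower bounds in size and not measured, and they move slightly with the signal taken from the tied range (*Trdn*, 6.83 to 6.72).

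Of the 26 genes with HCs above ENSCs in the vestibular system and below them in the cochlea, *Thsd7a* (7.87), *Itga4* (7.11), *Zcchc12* (6.94), *Ly75* (6.91), *Samd9l* (6.90), *Trdn* (6.83), *Nptx2* (6.26) and *Gucy1b3* (6.24) were past 6. Between 5 and 6 lay *Pole* (5.64), *Serpini1* (5.59), *Ccdc85a* (5.48), *Slc4a4* (5.38) and *Camk4* (5.06). *Pole*, the catalytic subunit of a replicative DNA polymerase, had 1068 in vestibular HCs against 27.8 in cochlear HCs, 100 in cochlear ENSCs and 77 in vestibular ENSCs. *Camk4*, a calcium-dependent kinase, had 93.3 in cochlear HCs, 447 in cochlear ENSCs, 249 in vestibular HCs and 35.8 in vestibular ENSCs. Lower in size were *Syne1* (4.95), *Snx16* (4.88), *Pcdh11x* (4.84), *Pid1* (4.69), *Sv2b* (4.66), *Pcdh20* (4.62), *Fam122b* (4.40), *Rgs20* (4.36), *Prss35* (4.17) and the lincRNA *2410004N09Rik* (4.01). Developmental regulators among the 26 were *Irx5* (4.58), a homeodomain factor with 378, 1502, 386 and 64.3 in cochlear HCs, cochlear ENSCs, vestibular HCs and vestibular ENSCs, and *Dact1* (4.28), a modulator of Wnt signalling.

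Of the 11 genes with the reverse pattern, *Slc14a1* (-9.74), *Vcan* (-7.06), *B3galt5* (-6.92), *Bcl11b* (-6.13) and *Matn4* (-6.09) were past -6. They were followed by *Dpysl3* (-5.74), *Jam2* (-5.65), *Zfp503* (-5.06), *Kif19a* (-4.55), *Palld* (-4.28) and *Arhgap26* (-3.76). *Kif19a*, a kinesin that limits the length of motile cilia, had 296 in cochlear HCs, 94.5 in cochlear ENSCs, 257 in vestibular HCs and 1925 in vestibular ENSCs. *Palld*, an actin-associated scaffold, had 520 in cochlear HCs against 96, 62.3 and 224 in the other libraries in the same order.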

How the results depend on the processing

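No paired analysis was possible because each population had 1 library, and no replicate could be left out. The counts of genes moved by more than 1.5 times under these settings. With a pseudocount of 100, 429 genes had the higher and 390 the lower vestibular ratio by 3-fold, and 49 and 33 by 9-fold. Of those large differences 65 had 1 library apart, the ENSC part was larger for 49, and opposite directions were left for 3 genes each way. With a minimum of 1000 in the highest library the 3-fold counts were 332 and 245, the 9-fold counts 83 and 57, with 124 and 90 for 1 library apart and the larger ENSC part, and 8 and 7 opposite genes. Without a minimum the 3-fold counts were 1393 and 1348. With a floor of 100 the 9-fold counts were 85 and 69, with 123 and 100 for the library apart and the ENSC part, and 10 and 5 opposite genes. With a pseudocount of 20, 85 genes had the lower ratio by 9-fold, 169 had 1 library apart, 137 the larger ENSC part and 6 opposite genes had the higher cochlear ratio. By construction these settings shrink ratios of low signals or change how many genes enter. A gap of 0.75 in place of 0.5 of the difference, a stricter definition, left 169 genes with 1 library apart. The other 76 of 105 such counts, which included every count under tied ranges raised to their top, centring on the median ratio (a shift of -0.08), protein-coding genes only, length and GC correction and genes above the floor in all libraries, stayed within 1.5 times. The counts for each single library were less stable, and 36 of 112 moved by more than 1.5 times. With length and GC correction the count for vestibular ENSCs high went from 84 to 49, for cochlear HCs low from 13 to 6 and for cochlear ENSCs low from 1 to 3. In this setting the library apart was read from uncorrected signals. With genes above the floor in all libraries the count for vestibular HCs high went from 49 to 26, for cochlear HCs high from 17 to 9 and for cochlear ENSCs high from 50 to 33. With a gap of 0.75 every count for a low library fell by more than 1.5 times. Vestibular ENSCs low went from 41 to 17, cochlear HCs low from 13 to 2, vestibular HCs low from 9 to 3 and cochlear ENSCs low from 1 to 0. Of 258 list medians under the alternatives, 56 moved by 0.25 or more on the log2 scale. The median of motile axoneme genes stayed between 1.35 and 2.32, and those of the bundle link, ribbon synapse, HC ion channel and calcium-binding lists turned under the settings given above. Length and GC correction also turned the medians of immediate-early genes (0.20), mesenchymal markers (from 0.29 to -0.25) and glial markers (from -0.19 to 0.11). Length and GC correction moved the median difference of all genes from 0.10 to -0.06.

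Of 1449 values of named genes under the alternatives, 1400 kept their direction and their side of 3-fold, 44 fell below 3-fold, 4 passed it and 1 turned, namely *S100b*, a calcium-binding protein of glia and supporting cells, from 1.98 to -0.11 with a floor of 100, which lies above its cochlear HC signal of 23.5. With 1 library per population no value has an error, and the floor of 20 limits every ratio that uses a low signal.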
